A study of Mus musculus with 2 samples.

Results

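Chil3 Lyz2 macrophages were cells chosen by their own UMI counts of Chil3, Lyz2 and the Cd3 genes. They are the cells of 2 mouse lung single-cell libraries that carried at least 10 UMIs (unique molecular identifiers, 1 per captured RNA molecule) of Chil3 and at least 3 of Lyz2, no UMI of Cd3d, Cd3e or Cd3g, at least 500 genes and under 10% mitochondrial UMIs. The rule found 794 cells among 11739 that passed the gene and mitochondrial filters. There were 226 among 5433 (4.16%, 95% interval 3.64 to 4.73) in the Nfe2l2fl/fl library and 568 among 6306 (9.01%, 8.31 to 9.74) in the Cd4cre Nfe2l2fl/fl library. The difference in share was 4.85 percentage points (3.96 to 5.73).

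Both libraries are labelled lung CD4+ cells of mice 8 to 15 weeks old, with tissue taken 16 h after the last airway dose. Both carry the loxP-flanked Nfe2l2 gene, which encodes the antioxidant transcription factor NRF2, and they differ in a Cre recombinase driven by Cd4 regulatory sequences, which is active in T cells. The series asked what NRF2 does in helper T cells in allergic asthma. The labels describe a model with PAO (7 ug) and Ova (20 ug) over 9 days, another with Der f 1 (1 ug, then 10 ug in 5 doses), and a mixed bone marrow transfer, and leave unstated which of them these libraries represent and how many mice went into each. Each group has 1 library, so no comparison between libraries has a replicate or a test. Intervals are 95% and cover counting error only, except that those of list medians cover the spread among the genes of a list.

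Macrophages clear particles, lipid and dying cells and present antigen. In the lung, alveolar macrophages live in the airspace and depend on GM-CSF and PPARG for the handling of surfactant lipid, whereas monocyte-derived macrophages enter inflamed tissue and pass through states marked by Ly6c2, Ccr2, Arg1, Spp1 or C1q genes. Chil3 encodes the secreted chitinase-like protein Ym1, which is abundant in allergic mouse lung, and Lyz2 encodes the lysozyme of myeloid cells.

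The cells held 753195 and 2375674 UMIs in the control (Nfe2l2fl/fl) and Cd4cre libraries, with medians of 2674 and 3328 UMIs per cell. Comparison cells were T cells (at least 2 UMIs of the Cd3 genes and none of Lyz2; 4788 and 4409 cells) and Tgfbi Ccl24 cells (at least 2 UMIs of Tgfbi and Ccl24 together, under 10 of Chil3 and no Cd3 UMI; 59 and 615 cells). Of the filtered cells, T cells made up 88.1% and 69.9% and Tgfbi Ccl24 cells 1.09% and 9.75%. A higher share in the Cd4cre library was thus not particular to the Chil3 Lyz2 cells. Between the libraries 49 barcodes were shared, of which 2 and 4 were Chil3 Lyz2 cells and 0 were such cells in both. A T cell receptor constant gene UMI was found in 7 and 33 of the Chil3 Lyz2 cells. Xist was detected and Y-linked genes were at 0 UMIs in them in both libraries.

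The markers Ccl6, Mrc1 and Ear2 were given with the rule but not used by it, and all values come from cells it picked. Their levels describe the cells and are no independent check of the label of macrophage. Levels are given as CPM, the summed UMIs of a gene in a cell group scaled to a common total. Ccl6, a chemokine of myeloid cells, stood at 6729 CPM in the control library and 4367 in the Cd4cre library, against 5.38 and 4.27 in T cells. Mrc1, the mannose receptor, stood at 571 and 471 CPM, against 0.367 and 1.12 in T cells. Ear2, an eosinophil-associated ribonuclease, was at 416 and 193 CPM, against 1.65 and 0.822. All 3 markers were thus far above their T cell levels in both libraries. A comparison with T cells alone cannot separate macrophages from other myeloid cells.

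Defining markers of several other cell types were low or at 0. Cd4 itself, the labelled marker of the sort, gave 8 and 7 UMIs in 5 and 7 of the cells, against 264 and 345 CPM in T cells. The 15 T cell markers summed to 157 and 174 CPM, against 5754 and 5530 CPM in T cells. The 8 mast cell and basophil markers were all at 0, as were the neutrophil genes S100a9 and Ly6g and the eosinophil genes Prg2 and Epx. Other members of those lists were detected, so that 14 neutrophil markers summed to 90.3 and 152 CPM and 10 eosinophil markers to 228 and 218 CPM. The 15 dendritic cell markers summed to 666 and 663 CPM, against 404 and 518 CPM in T cells. The part of such cells in the results was not tested. The libraries are labelled CD4+, so these cells sat outside the labelled cell type by transcript.

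What chose the cells is described without a test. Chil3 ran from 11 to 873 UMIs per cell with a median of 100 in the control library, and from 10 to 2218 with a median of 68 in the Cd4cre library. Its median share of a cell's UMIs was 4.03% and 2.45%. A Chil3 UMI was also found in 5.64% and 2.79% of thinned T cells, which should lack it. Summed, Chil3 stood at 39958 and 33894 CPM and Lyz2 at 8092 and 6134 CPM. Just inside the threshold, 3 and 28 cells had 10 to 12 Chil3 UMIs, and just outside it 3 and 31 cells had 7 to 9. The transcript of Chil3 is 94.4% identical to that of Chil4, Lyz2 is 96.0% identical to Lyz1, and Ear2 is 96.8% identical to Ear1. Reads shared by these pairs could have been split or lost in counting.

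Chil3 is on chromosome 3 (GRCm38, 106147554 to 106167564, minus strand) and Lyz2 on chromosome 10 (117277331 to 117282321, minus strand). Fth1 and Ftl1, the subunits of the iron store ferritin, were among the most abundant transcripts of these cells, with Fth1 at 40237 and 25319 CPM. Psap, a precursor of lysosomal lipid-degrading cofactors, stood at 14842 and 9748 CPM. Arg1, the enzyme that consumes arginine in alternatively activated macrophages, stood at 4615 and 5675 CPM against 22.9 and 24.3 in T cells. Spp1, osteopontin, stood at 5807 and 3623 CPM against 8.63 and 8.48.

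The cells were not uniform. Some carried genes of alveolar macrophages and some carried C1q, Apoe, Arg1 and Spp1. This was seen in the data and then described with 8 alveolar genes (Marco, Krt79, Plet1, Ear1, Siglecf, Cidec, Fabp1 and Krt19), so it gets no test. At least 2 UMIs of these genes were found in 55 of 226 cells (24.3%, 18.9 to 30.5) of the control library and in 14 of 568 (2.46%, 1.35 to 4.10) of the Cd4cre library. With each cell thinned to 2000 UMIs, which left out 68 and 126 shallower cells, the shares were 24 of 158 (15.2%) and 9 of 442 (2.04%). Siglecf, the surface lectin used to recognise alveolar macrophages, was seen in few of them, at 46.5 and 46.9 CPM.

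In the cells with alveolar genes, Plet1 stood at 1089 CPM (929 to 1268) in the control library and 1033 (750 to 1387) in the Cd4cre library, and Marco, a scavenger receptor, at 478 and 235 CPM. These 2 genes helped to define the cells. Genes that did not define them also differed from the cells with 0 such UMIs. Lpl, lipoprotein lipase, was at 897 against 85.6 CPM in the control library and 1338 against 73.8 in the Cd4cre library. Mmp12, the macrophage elastase, was at 2863 against 332 and 2652 against 465. Wfdc21 was at 1202 against 24.0 and 1643 against 35.4. Ear2 and Car4, carbonic anhydrase 4, followed the same order in both libraries. The Ear2 transcript is 96.8% identical to that of Ear1, which helped to define the cells, so Ear2 may not be independent of their choice.

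The genes with the opposite order were those of C1q-bearing and tissue macrophages. C1qb, a chain of the first complement component, was at 33.2 CPM (10.8 to 77.5) in control cells with alveolar genes and 730 (662 to 802) in those without, and at 70.4 and 540 CPM in the Cd4cre library. Apoe, the lipid carrier, was at 39.9 against 2410 and 117 against 1029. Arg1 was at 1269 against 5532 and 1150 against 5758, and Spp1 at 1421 against 7003 and 751 against 3698. Chil3 was at 53986 against 35629 CPM in the control library and 65052 against 33216 CPM in the Cd4cre library. Top2a, a proliferation gene, was at 133 CPM in control cells with alveolar genes and 5.14 CPM in those without. In the Cd4cre library it was at 0 UMIs in the 14 cells with alveolar genes and at 10.4 CPM in those without.

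**Figure D1:**
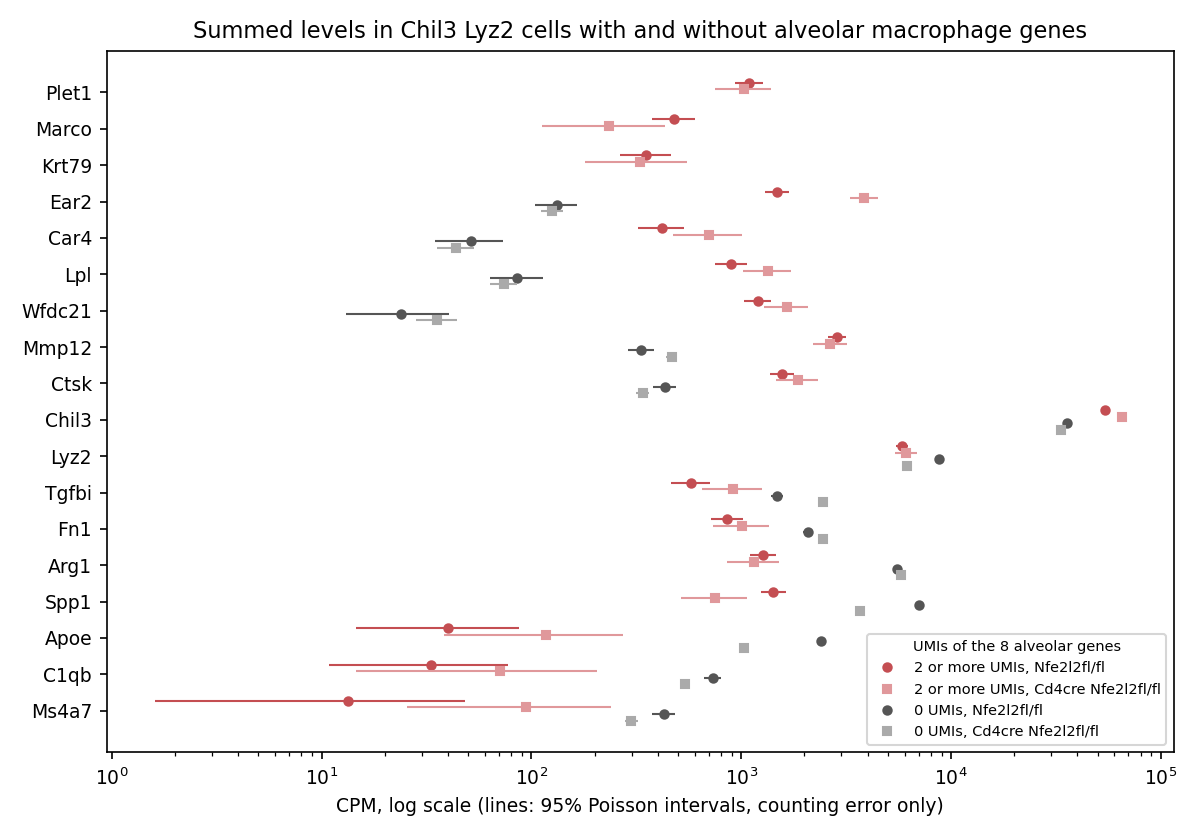
Summed CPM (log axis) of selected genes in Chil3 Lyz2 cells with at least 2 UMIs of 8 alveolar genes (red shades) and with 0 (grey shades), circles for the control and squares for the Cd4cre library, lines for Poisson intervals. Plet1, Marco, Krt79, Ear2, Lpl and Mmp12 lie higher in the red points, and Arg1, Spp1, Apoe and C1qb lie higher in the grey points; genes at 0 have no point.

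Across cells of 1 library, thinned to 2000 UMIs (158 and 442 cells), Spearman correlations describe how genes varied together, with no test. Chil3 ran against Ly6c2, Plac8 and Ccr2 together, at -0.29 and -0.51. It also ran against the class II genes, at -0.36 and -0.33. Against Tgfbi plus Ccl24 it stood at -0.35 and -0.31. Spp1 ran with lysosome genes, at 0.55 and 0.46. Tgfbi plus Ccl24 ran against ferritin, at -0.42 and -0.46. Cells share a library and these values are from sparse counts. A UMI of Ly6c2, Plac8 or Ccr2 was found in 13.9% and 34.4% of the cells. Chil3 chose the cells, and with each total fixed at 2000 UMIs, more Chil3 UMIs leave fewer for other genes.

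**Figure D2:**
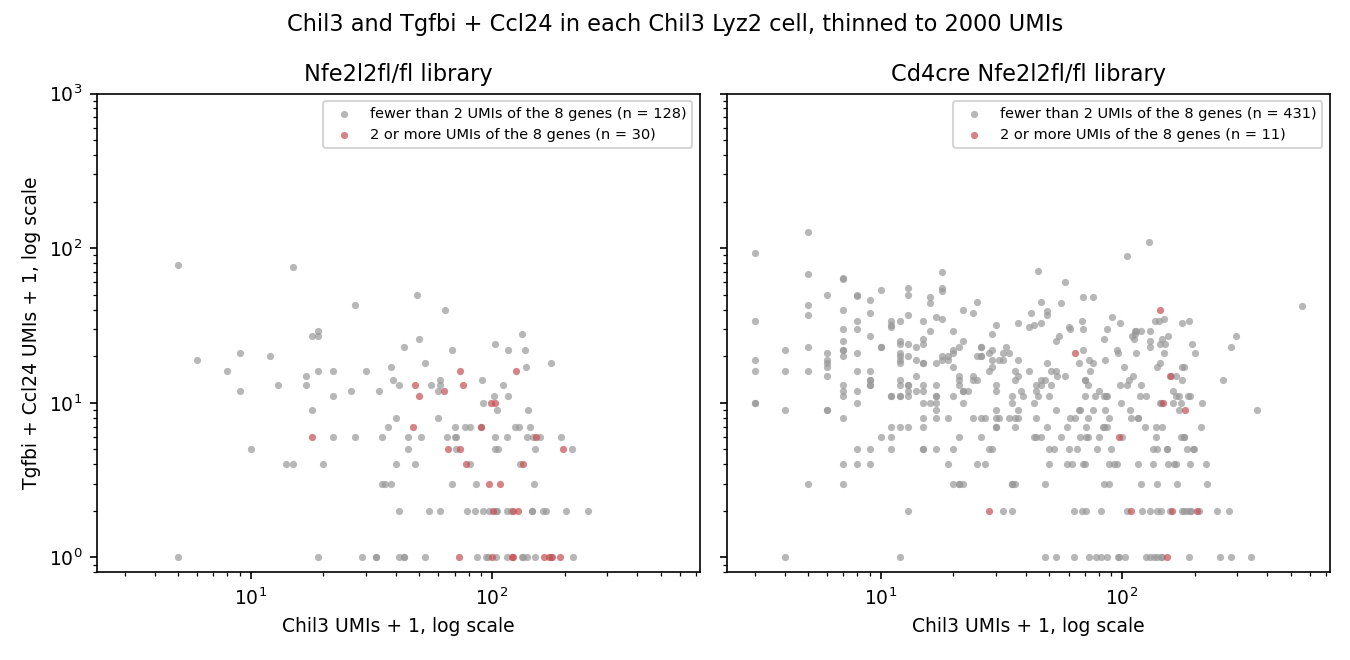
UMIs of Chil3 (x axis, plus 1, log scale) against Tgfbi and Ccl24 together (y axis, plus 1, log scale) in each Chil3 Lyz2 cell thinned to 2000 UMIs, 1 panel per library. Red points are cells with at least 2 UMIs of the 8 alveolar genes before thinning. Cells high in Chil3 reach lower values of the other 2 genes, in part because each total is fixed.

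Between libraries, genes were compared by fold alone, as there is 1 library per group. Of 5578 genes with at least 50 UMIs, 753 (13.5%) were at least 1.5-fold higher in the Cd4cre library and 344 (6.17%) at least 1.5-fold lower. Requiring the counting interval to lie beyond 0 left 476 (8.53%) and 236 (4.23%). The median of all genes was 0.087 on the log2 scale. The minimum on summed UMIs keeps a gene more easily when it is high in the larger library, which can tilt the split towards higher calls. With a minimum on the mean CPM of the 2 libraries, each weighted alike, 556 were higher and 324 lower, which brings the higher share of called genes from 68.6% to 63.2%. A lower summed minimum of 20 UMIs gave 63.5%, so the fall is not particular to the equal weighting.

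Interferon response genes were higher in the Cd4cre library. Of 26 measured, 25 had a higher value and 22 passed 1.5-fold, against 13.5% of all genes, and the median log2 ratio was 1.49. The list contained antiviral effectors, chemokines and guanylate-binding proteins. Rsad2, which encodes viperin, stood at 39.8 and 206 CPM, a log2 ratio of 2.37 (1.84 to 2.96). Isg15, a ubiquitin-like modifier, was at 123 and 381 CPM, a log2 ratio of 1.62 (1.31 to 1.95). Cxcl9, a chemokine for T cells, had 2 UMIs in control cells and 273 in Cd4cre cells. Ifitm3, a membrane antiviral protein, was at 266 and 844 CPM. Zbp1, a sensor of unusual nucleic acids, was at 29.2 and 115 CPM and Oasl1 at 18.6 and 81.7 CPM. Ifi205 and Slfn4, which are not on the list, were at 6.64 and 70.3 CPM and at 6.64 and 53.0 CPM.

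The same list was higher in the other cell groups too. In T cells 27 of 27 were higher, with a median of 0.63, and in Tgfbi Ccl24 cells 22 of 26 were higher, with a median of 0.50. Over all genes, 43.5% were higher in T cells and 54.3% in Tgfbi Ccl24 cells. Without the cells with alveolar genes, the median in Chil3 Lyz2 cells was 1.31 and 21 passed 1.5-fold. Whether the larger difference in the Chil3 Lyz2 cells goes beyond that of T cells has no replicate check. Over the alternative settings, the list median in Chil3 Lyz2 cells ran from 0.979 to 1.53. After thinning, Isg15 was detected in 25 of 158 and 132 of 442 cells, and in 20.4% and 28.0% of T cells. In thinned Chil3 Lyz2 cells with 0 UMIs of the 8 alveolar genes, the interferon response genes together had medians of 4 and 6 UMIs per cell. The ratios above are of summed UMIs, which a few cells with many UMIs can raise.

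MHC class II genes, which load peptides for CD4+ T cells, were higher in the Cd4cre library. Of 9 measured, 9 were higher and 7 passed 1.5-fold, against 13.5% of all genes, with a median of 1.26. H2-Eb1 was at 149 and 594 CPM, a log2 ratio of 2.00 (1.72 to 2.29), and H2-Ab1 at 329 and 1013 CPM. Cd74, the invariant chain, was at 1196 and 3037 CPM, a log2 ratio of 1.34 (1.24 to 1.45). H2-Eb1 was detected in 17.1% and 40.3% of thinned cells, beside 0.596% and 1.07% of thinned T cells, which do not make it. Without the cells with alveolar genes, the median was 1.20. In Tgfbi Ccl24 cells the median was 0.72 and in T cells 0.60.

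The promoters of 1 gene of each of these 2 lists are printed here, since most members of each list differed in 1 direction. They come from RefSeq (GRCm38.p6) and run from 250 bases before to 50 after the start. In H2-Eb1, at chr17:34305617-34305916 on the plus strand, capitals mark the class II Y box (CTGATTGG, either strand), which 4.07% of 32544 promoters hold. In Isg15, at chr4:156200769-156201068 on the minus strand, capitals mark 3 overlapping matches to the interferon-stimulated element (either strand), a motif bound by interferon-activated factors, which 3.45% of the promoters hold. A match is a description of these letters only. Among other promoters scanned, that of Cxcl9 held the class II Y box and no match to the interferon-stimulated element. A promoter of Plac8 also held the class II Y box.
H2-Eb1: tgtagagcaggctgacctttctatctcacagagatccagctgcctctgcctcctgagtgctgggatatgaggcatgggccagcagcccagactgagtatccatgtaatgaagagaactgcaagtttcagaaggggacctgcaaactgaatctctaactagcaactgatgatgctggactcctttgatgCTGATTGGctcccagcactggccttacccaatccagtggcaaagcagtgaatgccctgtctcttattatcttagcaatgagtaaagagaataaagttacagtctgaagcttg
Isg15: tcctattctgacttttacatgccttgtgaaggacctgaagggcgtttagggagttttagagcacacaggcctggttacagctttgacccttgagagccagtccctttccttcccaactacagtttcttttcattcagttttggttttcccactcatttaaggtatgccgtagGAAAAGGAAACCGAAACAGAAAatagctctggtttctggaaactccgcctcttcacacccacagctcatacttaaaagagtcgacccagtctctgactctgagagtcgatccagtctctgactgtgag

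Several genes of recruited monocytes were also higher. Plac8 was at 31.9 and 267 CPM, a log2 ratio of 3.07 (2.48 to 3.72). Ly6c2, the surface antigen of inflammatory monocytes, was at 23.9 and 112 CPM, and Ccr2, the receptor that brings monocytes into tissue, at 45.1 and 142 CPM. Ms4a4c had 1 and 144 UMIs. Plbd1 was at 38.5 and 141 CPM. Of 21 interstitial and monocyte-derived macrophage genes, 15 were higher, with 10 past 1.5-fold higher, against 13.5% of all genes, and 2 past it lower. The list median was 0.43, and its interval of -0.038 to 0.77 spanned no difference. Pf4, also on this list, was among the genes with the lowest ratios. Without the cells with alveolar genes, 7 passed higher and 3 lower, with a median of 0.26. The same list was higher in 18 of 19 genes in T cells, beside 43.5% of all genes, with a median of 0.88. It had a median of 0.38 in Tgfbi Ccl24 cells. Plac8 and Ccr2 are abundant in T cells, where they were at 479 and 498 CPM and 174 and 183 CPM.

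**Figure D3:**
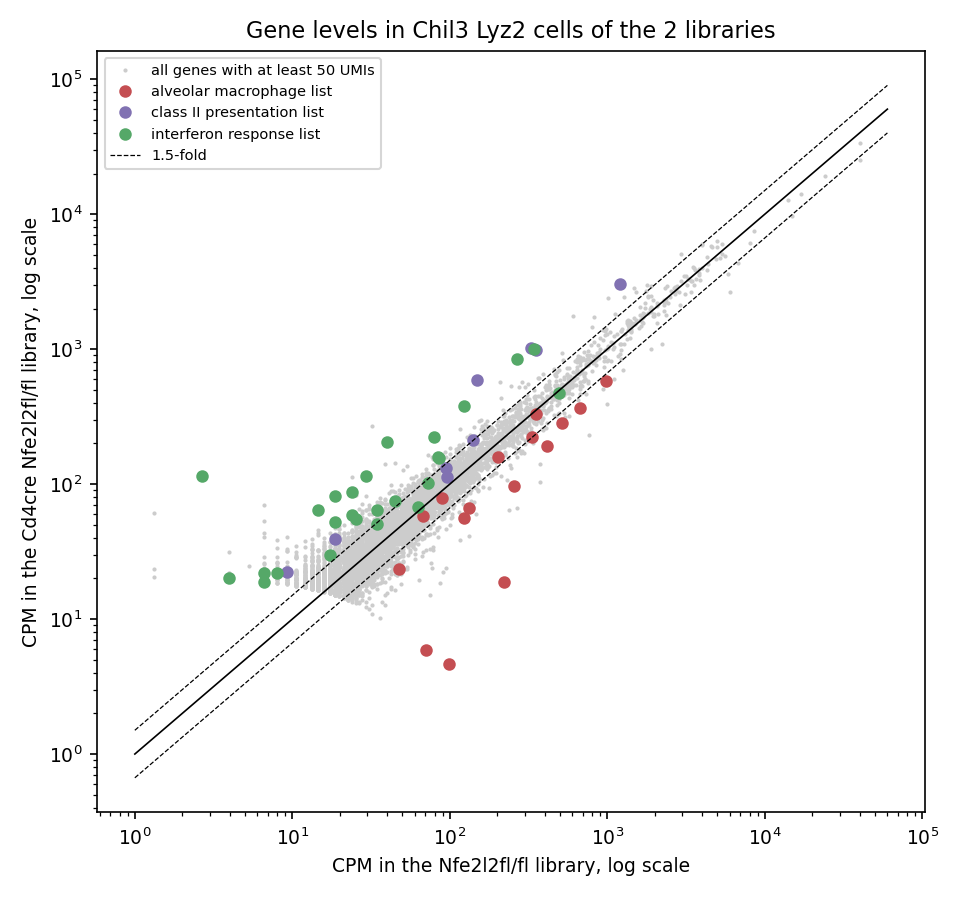
CPM in Chil3 Lyz2 cells of the control (x axis) and Cd4cre library (y axis), both log scales, for genes with at least 50 UMIs and a UMI in each library, with 3 lists coloured and dashed lines at 1.5-fold. Interferon and class II genes lie above the diagonal and alveolar genes below it.

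Alveolar macrophage genes were lower in the Cd4cre library. All 16 measured had a lower value and 11 passed 1.5-fold, against 6.17% of all genes, with a median of -0.94. Plet1 was at 222 and 18.9 CPM, a log2 ratio of -3.55 (-4.06 to -3.07), and Marco at 98.2 and 4.63 CPM. The cells with alveolar genes made up 24.3% and 2.46% of the cells. They were picked by UMIs of 8 genes of this same list, with Plet1 and Marco among them. Without these cells, 13 genes were measured, 11 were lower and 4 passed 1.5-fold, with a median of -0.35. The move from -0.94 is thus in part set by the choice of cells. Wfdc21 turned from a log2 ratio of -2.00 to 0.20.

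Most measured lysosome, lipid and iron genes had a lower value, but the intervals of the lipid and iron medians included 0. Of 32 lysosome genes 27 were lower and 8 passed 1.5-fold, against 6.17% of all genes, with a median of -0.16. In the Tgfbi Ccl24 cells 25 of 32 were lower and 6 passed, with a median of -0.23, beside 2167 of 4737 lower over all genes. Ctsd, cathepsin D, was at 6026 and 2657 CPM and Ctsl, cathepsin L, at 2229 and 1098 CPM. Of 24 genes of lipid uptake and PPARG, 16 were lower, with 6 past 1.5-fold lower, 2 past it higher and a median of -0.18 (-0.58 to 0.099). Only 2 lipid genes passed in each direction without the cells with alveolar genes. In the Tgfbi Ccl24 cells 12 of 20 lipid genes were lower, with a median of -0.13. Of 13 iron and heme genes, 10 were lower, with 6 past 1.5-fold lower, 1 past it higher and a median of -0.58 (-1.03 to 0.10). The iron median was -0.11 in the Tgfbi Ccl24 cells. Tfrc, the transferrin receptor, was at 373 and 104 CPM, a log2 ratio of -1.84 (-2.10 to -1.59), and Hmox1, the heme-degrading enzyme, at 570 and 321 CPM.

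Of 29 NRF2 target genes measured in these cells, 21 were lower and 7 passed 1.5-fold, against 6.17% of all genes, with a median of -0.26. Marco, Cd36, Hmox1 and Fth1 are on that list and on others, Hmox1 and Fth1 on the iron and heme list. The 7 also held Prdx1, Gstm1 and Idh1. Without the cells with alveolar genes, 20 of 28 were lower, with 6 past 1.5-fold lower, 1 past it higher and a median of -0.18. In Tgfbi Ccl24 cells 15 of 26 were lower, with a median of -0.030, and in T cells 19 of 30, with a median of -0.083. Over all genes, 2167 of 4737 were lower in Tgfbi Ccl24 cells and 6614 of 11708 in T cells, with medians of 0.054 and -0.030. Nqo1, a classic NRF2 target, was at 0 UMIs in both libraries. Nfe2l2 itself stood at 121 and 164 CPM in these cells and at 31.9 and 173 CPM in T cells. The labels do not give the exons between the loxP sites, so its UMIs cannot check the deletion.

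Alternative activation genes were mixed. Of 21 measured, 12 were higher and 9 lower, with a median of 0.26. Retnla, a secreted protein induced by IL-4, was at 207 and 572 CPM, and Ccl24, an eosinophil chemokine, at 2943 and 5111 CPM. Ccl17 was at 230 and 107 CPM, a log2 ratio of -1.10. With the alveolar-gene cells left out, Ccl17 was at 11.6 and 39.0 CPM, a log2 ratio of 1.75 (0.65 to 3.10), so its direction turned. Among the other genes with the lowest ratios, Pf4, a platelet and macrophage chemokine, was at 770 and 232 CPM, and Clec4n, a C-type lectin receptor, at 131 and 41.3 CPM. Mgll, which hydrolyses monoacylglycerol, was at 94.3 and 24.0 CPM, and Stmn1, a microtubule regulator of dividing cells, at 90.3 and 22.3 CPM. Leaving out the same cells, the log2 ratio of Mgll moved from -1.97 to -0.92 and that of Stmn1 from -2.02 to -0.80. The inflammatory cytokine list had 12 of 13 higher, with a median of 0.35, and the chemokine list 13 of 18, with a median of 0.49, beside 58.6% of all genes higher. Without the cells with alveolar genes, 9 of 13 cytokine genes were higher, with a median of 0.17, and the chemokine median was 0.31. In Tgfbi Ccl24 cells 6 of 13 cytokine genes were higher, beside 54.3% of all genes.

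**Figure D4:**
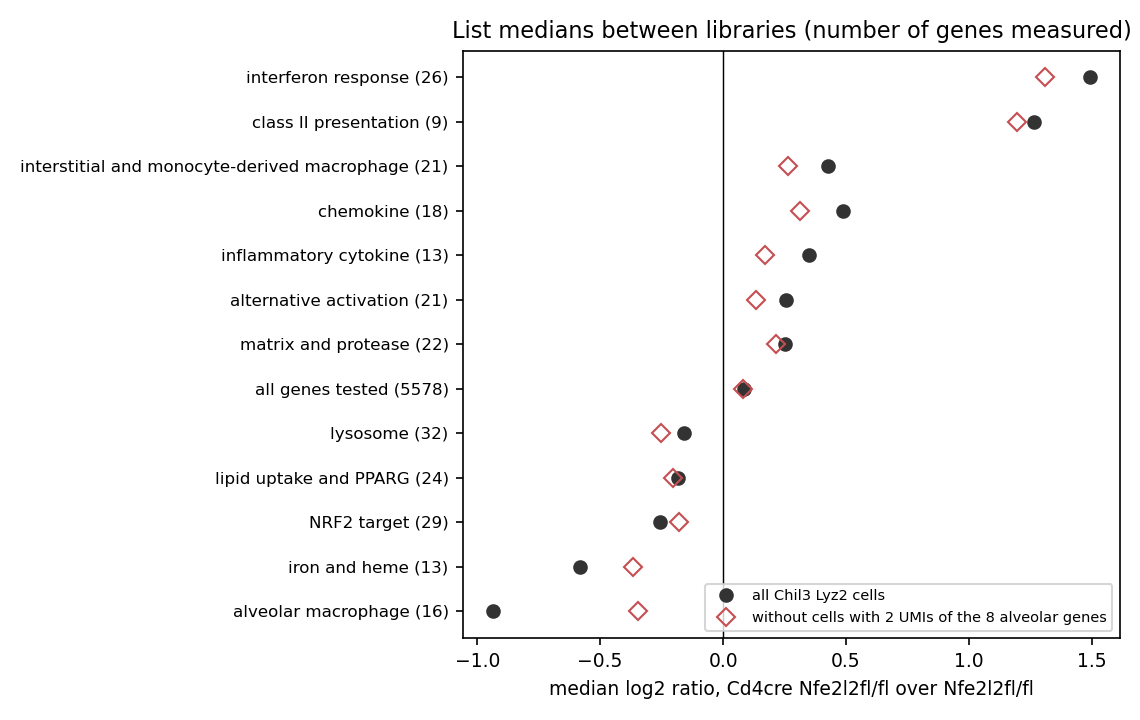
Median log2 ratio between libraries for each list (number of genes measured in parentheses), circles for all Chil3 Lyz2 cells and diamonds without the cells with at least 2 UMIs of the 8 alveolar genes. The interferon and class II medians stay above 1, and the alveolar median moves from -0.94 to -0.35. The 8 genes are all on the alveolar list, so that move is in part set by the choice of cells.

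Of the Chil3 Lyz2 cells, 180 of 226 and 520 of 568 themselves had at least 2 UMIs of Tgfbi and Ccl24. The Chil3 threshold divides them from the Tgfbi Ccl24 cells, and so does the Lyz2 minimum, which the latter need not meet. Of the Tgfbi Ccl24 cells, 28 of 59 and 329 of 615 had at least 3 UMIs of Lyz2. They were also shallower, with medians of 1713 and 2492 UMIs. Against the Tgfbi Ccl24 cells, 43 of 2302 genes with enough UMIs (1.87%) were at least 2-fold higher in both libraries and 22 (0.956%) at least 2-fold lower. Chil3 was part of the rule. Wfdc21 was higher, at 267 against 5.69 CPM in the control library and 66.9 against 1.51 in the Cd4cre library. In the Tgfbi Ccl24 cells 3 UMIs make 17.1 and 1.51 CPM, so these 2 low values rest on very few UMIs. Among the Chil3 Lyz2 cells, Wfdc21 was far higher in those with alveolar genes, as given above. Ctsk, cathepsin K, was at 668 against 85.3 and 365 against 69.7 CPM. Atp6v0d2, a proton pump subunit, was at 518 against 102 and 284 against 61.6 CPM. Ch25h, a cholesterol hydroxylase, was at 336 against 51.2 and 202 against 34.3 CPM. Cd36, a lipid scavenger receptor, was at 536 against 39.8 and 314 against 82.8 CPM.

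Class II genes were lower than in the Tgfbi Ccl24 cells, with medians of -2.51 and -1.37. Cd74 was at 1196 against 6801 and 3037 against 9631 CPM. Tmem176b was at 14.6 against 256 and 21.9 against 129 CPM, and Aif1 at 50.5 against 245 and 127 against 388 CPM. S100a9 was at 0 against 768 and 170 CPM. The alveolar list had medians of 1.83 and 0.60, the lysosome list 0.34 and 0.41, and the monocyte-derived list -0.57 and -0.47, beside -0.070 and -0.101 over all genes. The control comparison group has 59 cells, and 1 of them carried 360 collagen UMIs, 4 carried S100a8 or S100a9 and 3 carried Ccr7. In the Cd4cre comparison group 33 of 615 cells carried S100a8 or S100a9. Their part in these values was not tested.

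**Figure D5:**
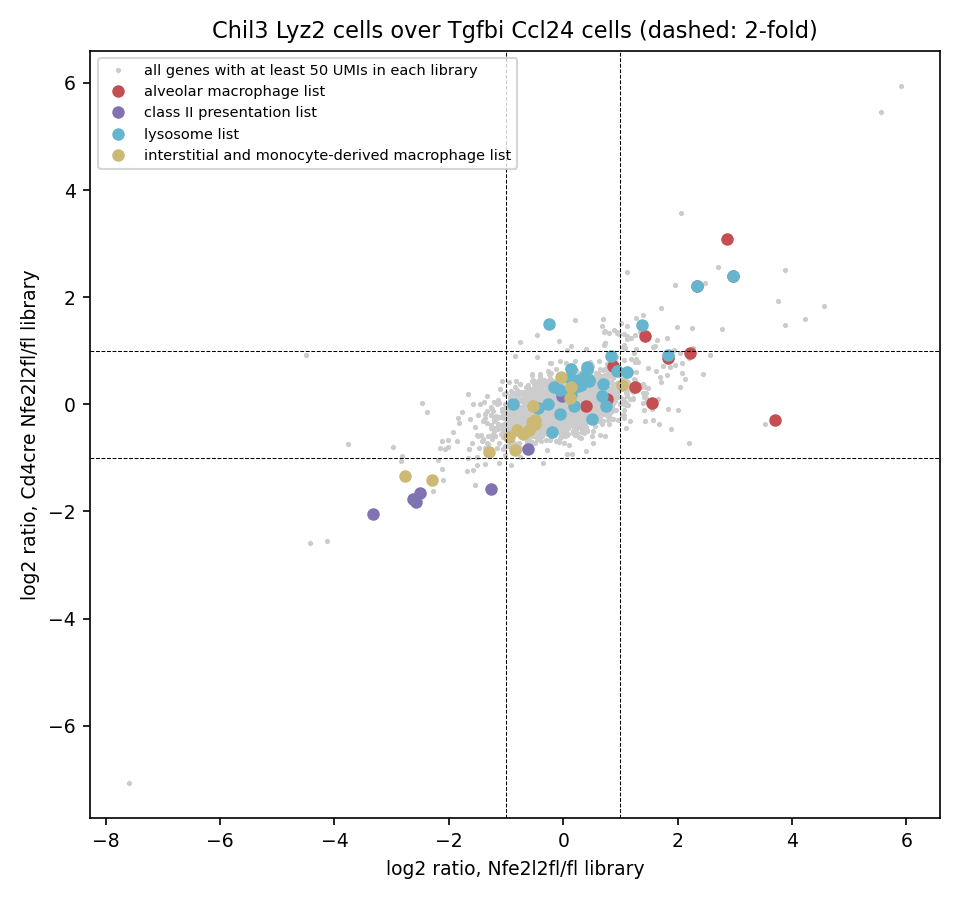
log2 ratio of Chil3 Lyz2 cells over Tgfbi Ccl24 cells in the control (x axis) and Cd4cre library (y axis), with 4 lists coloured and dashed lines at 2-fold. Class II genes lie at the lower left and alveolar and several lysosome genes at the upper right.

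Against T cells, 1277 of 10731 genes (11.9%) were at least 2-fold higher in both libraries and 2325 (21.7%) lower. The genes furthest above T cells included Wfdc17, at 3529 and 3009 CPM against 1.65 and 2.60, and Ccl8, a monocyte chemokine, at 1942 and 2311 CPM against 1.05 and 4.21. Fn1, fibronectin, was at 1818 and 2443 CPM against 1.92 and 4.63. Il13, the cytokine of type 2 helper T cells, was at 6.64 and 5.47 CPM against 1067 and 698 in T cells. Of 32 lysosome genes, 31 were higher in both libraries and 30 of them passed 2-fold.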

How the data were processed

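The deposited matrices hold raw UMI counts per gene and barcode, without normalization. Per the submitters' processing notes they were made with Cell Ranger 4.0.0 on GRCm38, and per the labels with 10x 5' reagents (version 2 chemistry). Gene names and barcodes were deposited as other files in matrix order. Of 32285 feature IDs, 32235 were found in GENCODE mouse release 21. Counts were summed per library and cell group and scaled to CPM with Python 3.11.15, numpy 2.4.6 and scipy 1.17.1. Intervals are exact Poisson (CPM), Clopper-Pearson (shares), conditional binomial (ratios) and Newcombe (differences of shares). Those of list medians are order-statistic intervals over the genes of a list. A group at 0 was set to 3 counts. Ratios needed 50 UMIs over both groups. Genes were named as the 12 with the largest ratio in each direction, scored as log2 with 10 CPM added, and as list genes. The 33 lists and the cells were chosen with earlier results of these data known. No doublet caller was run. The ratio code was tested on simulated counts. Alternatives are given in the closing section. One gene is not reported here.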

Additional observations from a re-analysis of the deposited data

Results flagged for a closer look

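Cells that carried a Cd3 UMI and otherwise met the rule numbered 51 in the control library and 113 in the Cd4cre library, and lay outside every comparison. Of these, 37 and 69 also had a T cell receptor constant gene UMI. Barcodes with fewer than 500 genes that otherwise met the rule numbered 43 and 40, with median totals of 696 and 706 UMIs. Both sets hold Chil3 signal in data that was not used.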

How the results depend on the processing

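No paired analysis was possible because there is a single library on each side, which also means that none could be left out. Raising the Chil3 threshold to 20 UMIs gave a difference in share of 3.72 points. With a minimum of 20 UMIs, 1280 genes were higher and 737 lower between libraries, and 42 were lower than in Tgfbi Ccl24 cells. With a mean CPM of at least 20, chosen after seeing the data, 48 were lower than in Tgfbi Ccl24 cells, and 813 were higher and 1136 lower than in T cells. Taking only Tgfbi Ccl24 cells with 3 UMIs of Lyz2, also chosen afterwards, gave 25 genes higher and 14 lower. Admitting those with any Cd3 count gave 152 and 608, with medians to Tgfbi Ccl24 cells of 2.71 (alveolar), 1.27 (monocyte-derived), 1.20 (alternative activation), 1.32 (lipid) and 0.068 (interferon, reversed). The added cells hold at least 1 Cd3 UMI. Plet1 differed by -21.3 points without thinning. Without the cells with alveolar genes, Wfdc21 reversed to 0.20. Of 297 values recomputed for the main results, 280 stayed within the interval of the main value, or for counts within 1.5 times. For list medians that interval covers the spread among genes, so a median can move far and still be counted as staying. Without the cells with alveolar genes, the alveolar median moved from -0.935 to -0.348, inside its interval of -1.41 to -0.343. The minimum on summed UMIs can favour genes higher in the larger library, so counts of lower genes may be the less complete.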

Other observations

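S100a8 and S100a9 encode the 2 chains of calprotectin and are usually found together in neutrophils. In the Chil3 Lyz2 cells S100a8 had 33 UMIs in 26 cells of the control library and 154 UMIs in 93 cells of the Cd4cre library, while S100a9 was at 0 UMIs in both. In the Tgfbi Ccl24 cells S100a9 had 135 and 336 UMIs and S100a8 had 105 and 214. These UMIs lay in 4 of 59 and 33 of 615 cells, of which 2 and 13 had at least 2 of them.

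Glycolysis genes, which turn glucose into pyruvate and lactate, were higher in the Cd4cre library in 13 of 15 measured, with a median log2 ratio of 0.26, and 4 passed 1.5-fold, beside 58.6% of all genes higher and 13.5% past 1.5-fold. Genes of the citric acid cycle and respiratory chain were mixed, with 13 of 32 higher and a median of -0.076. The 7 measured cell cycle genes were all lower, with a median of -0.34, and without the cells with alveolar genes 3 of 6 were lower, with a median of 0.033.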
